A study of Mus musculus with 18 samples.

Results

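The mouse mitochondrial chromosome carries 37 annotated genes, and these were taken from the count table by their chromosome name alone, out of 54446 genes in all. They are 2 rRNA genes, 13 protein genes and 22 tRNA genes, and the 3 classes are described apart, library by library. The study sequenced total RNA of the spinal cord of 18 mice, 3 in each of 6 genotypes. All were untreated and 10 months old. The Q33 double knock-in mice carried human hATXN2-Q33 and human hTDP-43, and the Q22 double knock-in mice carried hATXN2-Q22 and hTDP-43. The TDP-43, Q33 and Q22 groups carried 1 of these human sequences each. All knock-ins were heterozygous, and the labels name no promoter. The controls were non-transgenic C57BL/6 mice (NTg). Cord tissue mixes neurons, glia and vessels, so fewer cells of a type and less RNA per cell cannot be told apart. Longer glutamine tracts in ATXN2, which binds RNA, raise the risk of amyotrophic lateral sclerosis (ALS). TDP-43, encoded by the mouse gene Tardbp, regulates RNA splicing and collects in aggregates in the neurons of most people with ALS.

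The mitochondrial chromosome is a small circle that is transcribed from both strands into long precursor RNAs. The tRNAs lie between most of the other genes, and cutting them out at both ends releases the rRNAs and mRNAs. The 2 rRNAs (mt-Rnr1 of the small and mt-Rnr2 of the large subunit) and the 22 tRNAs serve a separate mitochondrial ribosome, which translates the 13 mRNAs into subunits of respiratory complexes I, III, IV and V. All proteins that copy, transcribe, process and translate this genome are imported products of nuclear genes. Spinal motor neurons have long axons and depend heavily on this oxidative ATP supply.

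The library totals ran from 16061359 to 30978678 counts, with a median of 23807573.5. A share of these totals is therefore precise as far as counting goes: the 95% Wilson intervals of the class shares were at most 0.0194 percentage points wide to either side for the rRNAs, 0.00727 for the protein genes and 0.00118 for the tRNAs. Intervals and floors cover counting error only. Levels are given as CPM, each count divided by its library's size and put on 1 scale for all libraries, on which 3 counts were worth 0.0968 to 0.187 CPM. Every library came from a different mouse.

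The tRNA genes are short, 59 to 75 bases, against a read length of 100 bases. Their sequences are shown here because the tRNAs varied most between libraries, and because, on the plus strand, tRNAs that varied widely and narrowly lie on the same precursor. The following 5 varied 14.5-fold to 36.97-fold between the highest and lowest library on the CPM scale, and the 2 after them only 3.45-fold and 2.62-fold. Each is printed 5′ to 3′ as DNA, on its own strand, with the anticodon in capitals. The positions are those of mm10, and the sequences come from the GENCODE transcripts of the same assembly, in which all 37 genes have the positions of the count table.
mt-Tv, the valine tRNA at chrM:1025-1093 on the plus strand between the 2 rRNA genes: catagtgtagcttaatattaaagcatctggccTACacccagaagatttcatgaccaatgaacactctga
mt-Ts1, a serine tRNA at chrM:6870-6938 on the minus strand: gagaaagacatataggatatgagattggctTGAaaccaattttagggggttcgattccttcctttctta
mt-Tg, the glycine tRNA at chrM:9391-9458 on the plus strand: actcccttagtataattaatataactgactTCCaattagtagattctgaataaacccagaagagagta
mt-Tt, the threonine tRNA at chrM:15289-15355 on the plus strand: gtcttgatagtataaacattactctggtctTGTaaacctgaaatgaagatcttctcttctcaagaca
mt-Tp, the proline tRNA at chrM:15356-15422 on the minus strand: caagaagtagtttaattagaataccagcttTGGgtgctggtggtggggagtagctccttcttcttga
mt-Tl1, a leucine tRNA at chrM:2676-2750 on the plus strand after mt-Rnr2: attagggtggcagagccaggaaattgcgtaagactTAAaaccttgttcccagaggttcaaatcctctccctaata
mt-Ti, the isoleucine tRNA at chrM:3706-3774 on the plus strand: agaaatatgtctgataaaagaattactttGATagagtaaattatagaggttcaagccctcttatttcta
Of these, mt-Tv and mt-Tl1 stand at the 2 ends of mt-Rnr2: mt-Tv ends directly before it and mt-Tl1 begins directly after it.

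The members differed widely in level, even within a class. Per kilobase of gene, and as a mean over the 18 libraries, mt-Rnr2 stood at 116798 CPM per kb and mt-Rnr1 at 17403 CPM per kb. Among the protein genes, mt-Co1, the catalytic subunit of complex IV, was highest at 8329 CPM per kb. It was followed by mt-Atp8, a small subunit of the ATP synthase, at 4761 CPM per kb and mt-Nd1, a subunit of complex I, at 3078 CPM per kb. The lowest protein gene was mt-Co2, a copper-binding subunit of complex IV, at 2.01 CPM per kb, although it lies on the same precursor as mt-Co1. Its raw counts were 45, 42 and 36 in the Q33 double knock-ins, and in all libraries ran from 11 to 61. The tRNAs ran from 1.22 CPM per kb for mt-Tl2 to 1503 CPM per kb for mt-Tg. The tRNA mt-Tl2 was at 0 in 9 libraries and mt-Ts2 in 5, and 4 more tRNAs were at 0 in 2 or 3 libraries each.

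**Figure D1:**
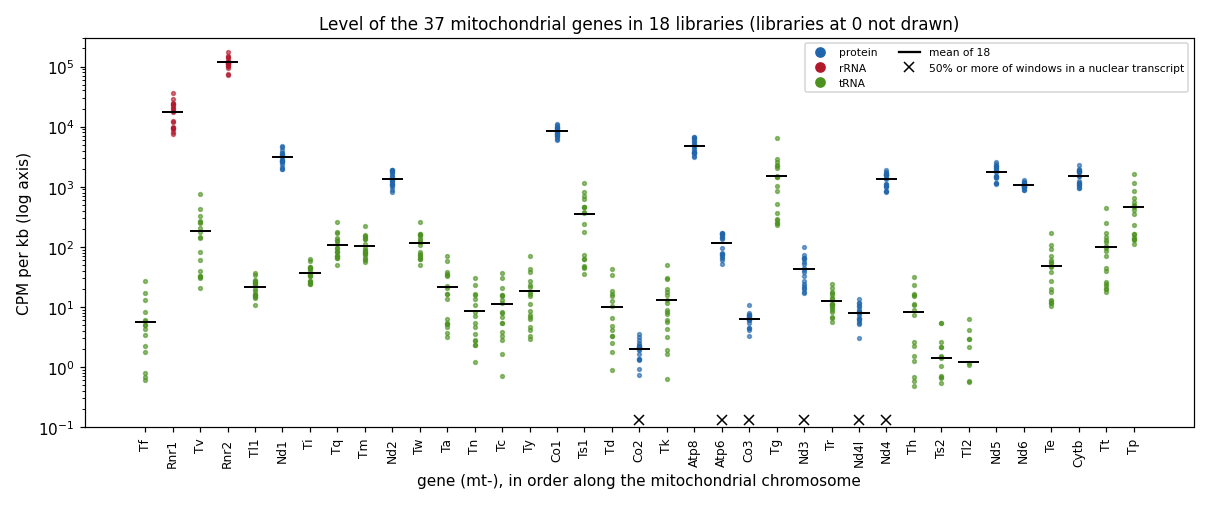
Level of each of the 37 genes in each of the 18 libraries, in CPM per kilobase of gene on a log axis, in order along the chromosome, with a bar at the mean. The 6 crosses mark protein genes of which at least 50% of the 100-base windows also occur in an annotated nuclear transcript, and 5 of these 6 are the lowest protein genes.

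The low protein genes shared a property of their sequence. Of the 100-base windows of mt-Co2, 99.5% occurred without a mismatch in an annotated transcript of a nuclear gene (Gm28661 or Gm13341). The same held for 99.9% of the windows of mt-Co3 (in Gm28437), 99.5% of mt-Atp6 (in Gm10925), 98.5% of mt-Nd4l (in Gm10222) and 97.6% of mt-Nd3 (in Gm28438). Beside mt-Co2, these genes stood at 6.32 CPM per kb for mt-Co3, 114 for mt-Atp6, 8.05 for mt-Nd4l and 43.1 for mt-Nd3. For mt-Nd4 the share was 60.8%, for mt-Co1 30.8% and for mt-Nd2 3.19%. For mt-Nd1, mt-Atp8, mt-Nd5, mt-Nd6, mt-Cytb and both rRNA genes it was 0%. Per the file headers, pairs that align to several places were not counted. Some nuclear copies had more counts than the mitochondrial genes they match: Gm28661 had 255 to 2799 counts per library where mt-Co2 had 11 to 61, Gm28437 had 693 to 5562 where mt-Co3 had 55 to 242, and Gm10925 had 910 to 11551 where mt-Atp6 had 662 to 3223. How the aligner placed pairs of identical sequence was not tested, and the levels of mt-Co2, mt-Co3, mt-Nd4l, mt-Nd3 and mt-Atp6 are uncertain as measures of their RNA. The first 60 bases of mt-Co2 (chrM:7013-7072, plus strand, mm10) are shown as an example, and they stand unchanged in Gm28661 (chr1:24614885-24615565).
mt-Co2, start: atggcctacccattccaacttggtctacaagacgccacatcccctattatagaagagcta
Genes also share bases on the chromosome itself. The largest shared stretch was 43 bases between mt-Atp8 and mt-Atp6 on the same strand, and mt-Nd5 and mt-Nd6 share 14 bases on opposite strands.

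The rRNA class made up the bulk of the mitochondrial counts, and it was largest in the Q33 double knock-ins. The 2 rRNA genes took 28.7%, 26.3% and 23.4% of library counts in the Q33 double knock-ins and 19.3%, 20.1% and 16.7% in the Q22 double knock-ins. They took 19.5%, 20.9% and 12.7% in TDP-43 cords, 19.5%, 23.4% and 18.3% in Q33 cords, 19.6%, 20.1% and 20.7% in Q22 cords, and 14.3%, 19.2% and 19.8% in NTg cords. The 3 Q33 double knock-in libraries were the 3 highest, but the lowest of them, at 23.36%, was level with Q33 replicate 2, at 23.35%. The mean was 26.1% ± 2.70 in the Q33 double knock-ins against 17.8% ± 3.05 in NTg cords (SD, n = 3 each), a difference of 8.37 percentage points with an exact two-sided permutation p of 0.1, the smallest that 3 against 3 allows. Against the Q22 double knock-ins the difference was 7.44 points, against TDP-43 8.43 points and against Q33 5.78 points, each with the same p of 0.1. The labels say that rRNA was depleted but not which rRNAs this covered. Loci that resemble cytosolic rRNA (such as Gm42418 and AY036118) took 0.476% to 0.605% of library counts in the Q33 double knock-ins and 0.669% to 0.714% in NTg cords, lower without overlap. With TMM scaling, which sets library sizes on the assumption that most genes do not differ, they summed to between 5047 and 6934 CPM in the Q33 double knock-ins and to between 6483 and 6867 CPM in NTg cords, which overlap, and none of the 4 tested passed edgeR's test between these groups.

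The protein class was far smaller and more even. It took 2.63%, 3.06% and 2.74% in the Q33 double knock-ins, 2.58%, 2.27% and 2.27% in the Q22 double knock-ins, and 2.05%, 2.81% and 2.01% in TDP-43 cords. It took 2.79%, 2.99% and 2.72% in Q33 cords, 2.90%, 2.48% and 2.51% in Q22 cords, and 2.40%, 2.63% and 2.28% in NTg cords. The Q33 double knock-ins and the Q33 cords stood above NTg without overlap, by 0.371 and 0.399 percentage points (exact permutation p = 0.1 for each). The Q33 double knock-ins and the Q33 cords overlapped.

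The tRNA class followed no genotype. It took 0.00766%, 0.0441% and 0.00674% of counts in the Q33 double knock-ins, 0.0170%, 0.00570% and 0.0276% in the Q22 double knock-ins, and 0.00523%, 0.0315% and 0.0220% in TDP-43 cords. It took 0.0292%, 0.0118% and 0.0190% in Q33 cords, 0.0808%, 0.00578% and 0.0224% in Q22 cords, and 0.0375%, 0.00542% and 0.00489% in NTg cords. Mice of the same genotype thus differed several-fold, and all genotypes overlapped. The means were 0.0195% ± 0.0213 in the Q33 double knock-ins and 0.0159% ± 0.0187 in NTg cords (SD, n = 3 each).

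**Figure D2:**
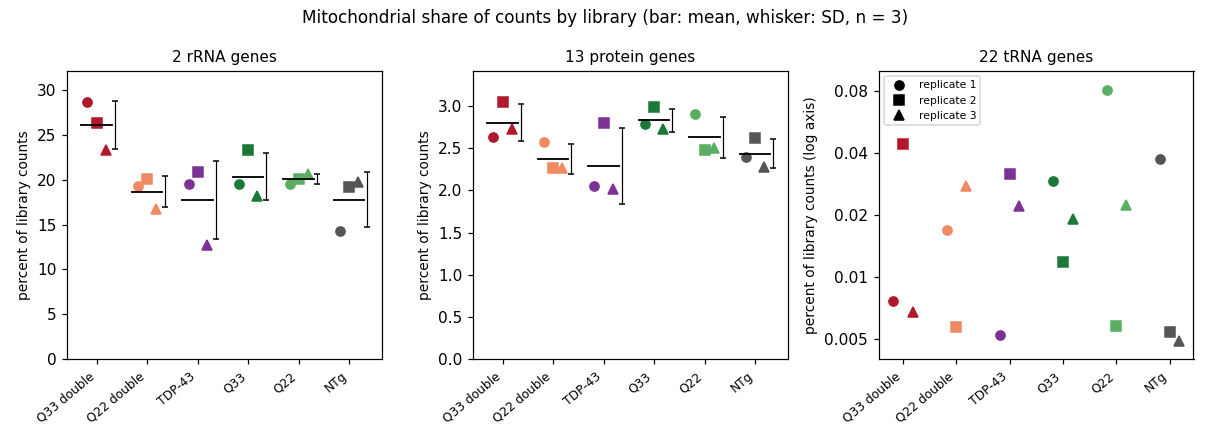
Share of library counts, in percent, of the 2 rRNA, 13 protein and 22 tRNA genes in each library, by genotype, with mean and SD (n = 3) for the rRNA and protein genes and a log axis for the tRNA genes. The rRNA share was 23.4% to 28.7% in the Q33 double knock-ins, and the tRNA share spread within every genotype.

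The class shares were also compared over genotypes averaged with equal weight, by exact permutation of libraries within the other factor, in 18 two-sided tests. Carriers of either ATXN2 form had a protein share of 2.66% ± 0.257 (n = 12) against 2.36% ± 0.313 (n = 6) in mice without one, a difference of 0.297 points (exact permutation p = 0.0479, adjusted over the 18 tests 0.199). Carriers of the Q33 form had a protein share of 2.82% ± 0.166 against 2.50% ± 0.236 in carriers of the Q22 form (n = 6 each, exact permutation p = 0.03, adjusted 0.199). The rRNA share was 23.3% ± 3.97 in Q33 carriers against 19.4% ± 1.41 in Q22 carriers (n = 6 each, exact permutation p = 0.05, adjusted 0.199). That difference was 7.44 points between the double knock-ins and 0.24 points between Q33 and Q22 cords. In TDP-43 carriers the rRNA share was 20.9% ± 4.83 against 19.4% ± 2.39 in non-carriers (n = 9 each, exact permutation p = 0.346). Of the 18 tests 3 had an unadjusted p under 0.05 and none passed after adjustment. The third of these was the log2 ratio of mt-Nd6, the only protein gene on the minus strand, to the other protein genes. It was -5.57 ± 0.171 in ATXN2 carriers (n = 12) against -5.38 ± 0.177 in non-carriers (n = 6, exact permutation p = 0.0483, adjusted 0.199).

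Gene by gene, 35 of the 37 members passed edgeR's filter on low counts, and mt-Ts2 and mt-Tl2 did not. CPM values from here on use TMM scaling. The test was edgeR's quasi-likelihood test over all 20635 genes that passed, with Benjamini-Hochberg adjustment at 0.05. In the Q33 double knock-ins against NTg, 2 of 35 members (5.71%) rose, where 5.68% of all genes tested rose, and none fell, where 6.39% of all genes fell (12.1% were called in either direction). Against the Q22 double knock-ins 4 members (11.4%) rose, where 6.67% of all genes rose, and none fell, where 6.17% of all genes fell (12.8% in either direction). Against TDP-43 cords 4 rose as well, where 5.98% of all genes rose, and none fell, where 6.66% of all genes fell (12.6% in either direction). These comparisons share the Q33 double knock-in libraries. The median log2 fold change of the 35 members was 0.44 against NTg, 0.44 against the Q22 double knock-ins and 0.33 against TDP-43, where that of all genes was -0.01, -0.01 and -0.02. Medians of this size were not limited to this genotype. Against NTg the members' median was 0.66 in Q22 cords and 0.37 in Q33 cords. It was 0.14 in TDP-43 cords and 0.05 in the Q22 double knock-ins. In the Q22 double knock-ins against Q22 it was -0.64, with 0 of 35 members positive. The members past the threshold in the Q33 double knock-ins were mt-Rnr2, mt-Nd6, mt-Co1 and mt-Co3, and no tRNA was among them.

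The large subunit rRNA mt-Rnr2 had 320590, 270310 and 238180 CPM in the Q33 double knock-ins, against 172610, 185360 and 135200 CPM in the Q22 double knock-ins. It had 176300, 191360 and 104290 CPM in TDP-43 cords, 176890, 223840 and 164670 CPM in Q33 cords, 168550, 188210 and 184130 CPM in Q22 cords, and 110310, 177990 and 183660 CPM in NTg cords. All 3 Q33 double knock-in libraries stood above all 15 others, on this scale and as a share of library counts. The log2 fold change was 0.81 against NTg (SE 0.216, adjusted p = 0.0216), 0.75 against the Q22 double knock-ins (adjusted p = 0.0293), 0.81 against TDP-43 (adjusted p = 0.0209) and 0.55 against Q33 (adjusted p = 0.183). The call against NTg was lost without Q33 double knock-in replicate 1 (0.69, adjusted p = 0.108) or NTg replicate 1 (0.62, adjusted p = 0.0868), and no member was then called against NTg. Against the Q22 double knock-ins it was lost without Q33 double knock-in replicate 1 or 2 or Q22 double knock-in replicate 3, and against TDP-43 without Q33 double knock-in replicate 1 or TDP-43 replicate 3.

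The small subunit rRNA mt-Rnr1 did not behave like its neighbour. It had 13395, 31300 and 9651 CPM in the Q33 double knock-ins, against 17056, 9274 and 17696 CPM in the Q22 double knock-ins. It had 7287, 24823 and 10603 CPM in TDP-43 cords, 21305, 17012 and 19251 CPM in Q33 cords, 36445, 8751 and 22444 CPM in Q22 cords, and 20874, 8429 and 7003 CPM in NTg cords. All genotypes overlapped. The log2 fold change of the Q33 double knock-ins against NTg was 0.58 (SE 0.525, adjusted p = 0.504).

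mt-Nd6, a membrane subunit of complex I, had the narrowest range of all members, 1.43-fold from the lowest to the highest library as a share of counts. It had 654, 719 and 699 CPM in the Q33 double knock-ins, against 457, 525 and 423 CPM in the Q22 double knock-ins. It had 501, 549 and 464 CPM in TDP-43 cords, 563, 501 and 572 CPM in Q33 cords, 575, 570 and 521 CPM in Q22 cords, and 556, 592 and 490 CPM in NTg cords. In CPM the 3 Q33 double knock-in libraries were again above all 15 others, but as a share of library counts they were not. The log2 fold change was 0.34 against NTg (SE 0.0977, adjusted p = 0.0313), 0.56 against the Q22 double knock-ins (adjusted p = 0.00192), 0.45 against TDP-43 (adjusted p = 0.00766) and 0.34 against Q33 (adjusted p = 0.0834). The calls against the Q22 double knock-ins and TDP-43 held without any single replicate of the groups compared, with adjusted p up to 0.0164 and 0.0433. The call against NTg held without NTg replicate 2 (adjusted p = 0.0303) and was lost without any of the other 5 libraries (adjusted p up to 0.118).

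The size of the mt-Nd6 difference depended on scaling. As a share of library counts it was 0.0563%, 0.0627% and 0.0659% in the Q33 double knock-ins against 0.0604%, 0.0611% and 0.0510% in NTg cords, which overlap. Scaling by library totals moved the median of all genes by -0.25 in the Q33 double knock-ins against NTg, and mt-Nd6 then differed by 0.10 (adjusted p = 0.496) and mt-Rnr2 by 0.57 (adjusted p = 0.0424). Against the Q22 double knock-ins, mt-Nd6 was called under either scaling (0.33 and adjusted p = 0.0248 with library totals), while mt-Rnr2 was not (0.52, adjusted p = 0.0671). Against TDP-43, with library totals, the fold change of mt-Nd6 was 0.23 (adjusted p = 0.106).

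mt-Co1 had 19744, 16383 and 17127 CPM in the Q33 double knock-ins, against 12009, 11489 and 9494 CPM in the Q22 double knock-ins. It had 11455, 13285 and 8744 CPM in TDP-43 cords, 11600, 15284 and 12541 CPM in Q33 cords, 11154, 14621 and 11210 CPM in Q22 cords, and 8639, 14995 and 14101 CPM in NTg cords. On this scale the Q33 double knock-ins stood above every other library. As a share of library counts they did not: the lowest of them had 1.43%, against 1.55% in NTg replicate 2. The log2 fold change was 0.69 against the Q22 double knock-ins (SE 0.189, adjusted p = 0.0231), 0.67 against TDP-43 (adjusted p = 0.0276) and 0.50 against NTg (adjusted p = 0.0908). Without Q33 double knock-in replicate 1 neither call held, and the same was true without Q22 double knock-in replicate 2 or 3 and without TDP-43 replicate 1 or 3 for the comparisons that use them. With library totals neither passed (adjusted p = 0.0684 and 0.0728).

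mt-Co3, another core subunit of complex IV, is one of the genes with nuclear copies and had few counts, 55 to 242 per library. It had 7.24, 9.72 and 6.06 CPM in the Q33 double knock-ins, against 4.62, 4.62 and 3.18 CPM in the Q22 double knock-ins. It had 3.22, 5.41 and 2.27 CPM in TDP-43 cords, 5.05, 5.08 and 5.82 CPM in Q33 cords, 5.76, 3.16 and 4.91 CPM in Q22 cords, and 3.87, 5.53 and 5.20 CPM in NTg cords. The lowest Q33 double knock-in library stood just above the highest of the other 15, Q33 replicate 3, but below it as a share of library counts (0.000571% against 0.000577%). The log2 fold change was 0.89 against the Q22 double knock-ins (adjusted p = 0.0414) and 1.06 against TDP-43 (adjusted p = 0.0197). The call against the Q22 double knock-ins was lost in 5 of the 6 fits that each left out 1 library of these groups, with adjusted p up to 0.184. It was also lost with library totals (adjusted p = 0.0687) and with totals of genes outside the chromosome (adjusted p = 0.0520). The call against TDP-43 was lost in 4 of 6, without Q33 double knock-in replicate 1 or 2 or TDP-43 replicate 1 or 3.

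**Figure D3:**
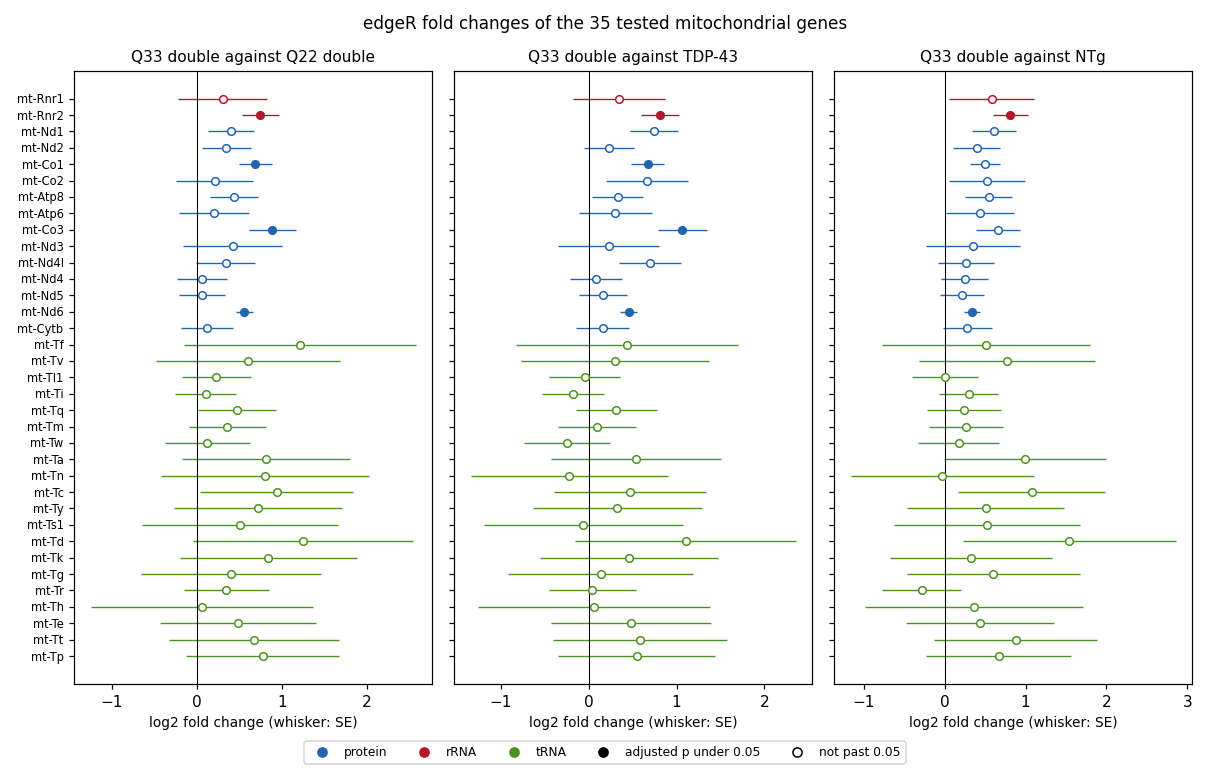
edgeR log2 fold changes with SE of the 35 tested members for the Q33 double knock-ins against the Q22 double knock-ins, TDP-43 and NTg, in order along the chromosome within each class, with filled points where the adjusted p is under 0.05. The 13 protein genes lie right of 0 in all 3 panels, and the whiskers of the tRNAs are the widest.

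Against NTg, the other protein genes did not pass the test. All 13 had positive log2 fold changes in the Q33 double knock-ins against NTg, from 0.21 (mt-Nd5) to 0.66 (mt-Co3), and mt-Nd6 was the only one past the threshold. mt-Nd1 had 0.62 (adjusted p = 0.145), mt-Atp8 0.54 (adjusted p = 0.223) and mt-Cytb, the only mitochondrially encoded subunit of complex III, 0.28 (adjusted p = 0.589). Without human TDP-43, the Q33 cords against NTg had a median protein log2 fold change of 0.61. There, mt-Atp6 had 0.98 (adjusted p = 0.659), and 5 members had an unadjusted p under 0.05, a cutoff at which the share of all genes is not given. The Q33 double knock-ins against Q33 had a median protein log2 fold change of -0.24, with 5 of 13 positive.

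In the remaining comparisons edgeR called no member. This holds for the Q22 double knock-ins against NTg (where 0.00969% of all genes were called), and for TDP-43, Q33 and Q22 against NTg (0% of all genes each). It also holds for the Q22 double knock-ins against TDP-43 and against Q22, and for Q33 against Q22 (0% each). At an unadjusted p under 0.05 there were 5 members for Q33 against NTg and 1 each for the Q22 double knock-ins against NTg and against Q22. There were 0 in the other 4 of these comparisons, and DESeq2 called 0 in all of them. For the Q33 double knock-ins against Q33, where 0.892% of all genes were called, edgeR called 0 members, 3 had an unadjusted p under 0.05, and DESeq2 called 1. The percentages of all genes here are at an adjusted p under 0.05. The share of all genes at the unadjusted cutoff is not given, so the unadjusted counts cannot be set against it.

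Over averaged genotypes, mt-Nd6 was the 1 member called in Q33 carriers against Q22 carriers (log2 fold change 0.27, SE 0.0691, adjusted p = 0.0443), where 3.07% of all genes were called, 1.01% higher and 2.06% lower. That call was lost in 10 of the 12 fits that each left out 1 of these libraries, with log2 fold changes of 0.24 to 0.31 and adjusted p of 0.0313 to 0.121. It held without Q22 double knock-in replicate 2 or Q33 replicate 2. The mean of mt-Nd6 was 691 CPM in the Q33 double knock-ins and 468 CPM in the Q22 double knock-ins. Without human TDP-43 it was 545 CPM in Q33 cords and 555 CPM in Q22 cords. The averaged difference thus came from the double knock-ins. No member was called for ATXN2 carriers against non-carriers (0.00485% of all genes called, 3 members at an unadjusted p under 0.05, 0 by DESeq2). None was called for TDP-43 carriers against non-carriers (0.00485%, 0 members at an unadjusted p under 0.05, 0 by DESeq2). Neither interaction of an ATXN2 form with TDP-43 had a called gene (0%), and DESeq2 called 0 members in both. For the Q33 form 3 members had an unadjusted p under 0.05, among them mt-Nd6 with an interaction of 0.45 (SE 0.138, adjusted p = 0.245), and for the Q22 form 0. For the counts at an unadjusted p under 0.05 the share of all genes at that cutoff is not given.

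Within every genotype but Q33, a second pattern set libraries apart, and these genotypes each had libraries of both kinds. The ratio of mt-Rnr2 to mt-Rnr1 counts was 23.9, 8.64 and 24.7 in the Q33 double knock-ins, 10.1, 20.0 and 7.64 in the Q22 double knock-ins, and 24.2, 7.71 and 9.84 in TDP-43 cords. It was 8.30, 13.2 and 8.55 in Q33 cords, 4.62, 21.5 and 8.20 in Q22 cords, and 5.28, 21.1 and 26.2 in NTg cords. Every library with a ratio of about 20.0 or more had a tRNA share of at most 0.00766%, and every other library had one of at least 0.0118%. Q33 cords had no library of the first kind. Because libraries fell apart in this way, correlations are given within genotypes, over deviations from the genotype means of 18 libraries, and not pooled. The log2 ratio and the log2 tRNA share were correlated with r = -0.988 (exact permutation p = 2.1e-05, which is the smallest that the permutations can give, Spearman's rho = -0.988). After leaving out the 2 libraries with the most extreme tRNA shares (Q22 replicate 1 and NTg replicate 3), r was -0.992.

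Other short RNAs moved with the tRNAs. Outside the mitochondrial chromosome, 5727 small RNA genes (snRNAs, snoRNAs, miRNAs and the like) together took 0.141%, 0.322% and 0.103% of counts in the Q33 double knock-ins and 0.359%, 0.104% and 0.105% in NTg cords. Over all libraries their share ran from 0.0997% to 0.501%, and Q22 replicate 1 was highest in this share and in the tRNA share alike. Within genotypes the correlation of the 2 log2 shares was r = 0.981 (exact permutation p = 4.3e-05, rho = 0.979), and 0.973 without the same 2 libraries. A set of 9 nuclear genes that share windows with mitochondrial genes (without Gm10222) took 0.0192% to 0.151% of counts, with r = 0.965 to the tRNA share (exact permutation p = 0.00045, rho = 0.965), and 0.957 without these libraries. These 3 relations were computed after the data were seen, and their p adjusted over the 3 are 6.4e-05, 6.4e-05 and 0.00045. Rpph1, the RNA of the nuclear RNase P that trims tRNAs, ran from 5.6e-05% to 0.00118% of counts. What set these shares was not tested.

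**Figure D4:**
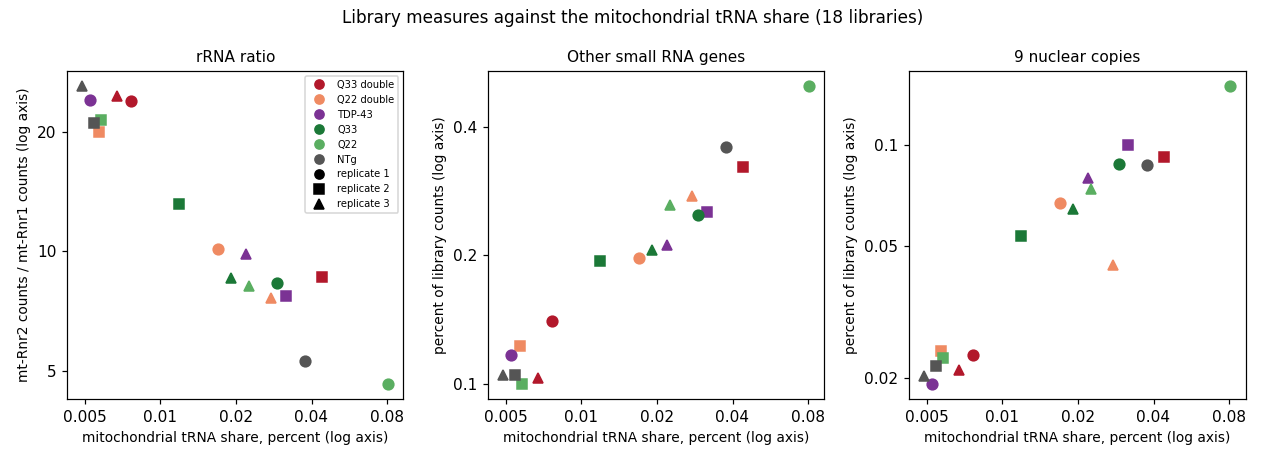
Ratio of mt-Rnr2 to mt-Rnr1 counts, share of the 5727 other small RNA genes and share of the 9 nuclear copies, each against the mitochondrial tRNA share of the same library, all on log axes, for the 18 libraries. The ratio lies between 4.62 and 26.2 and is lowest where the tRNA share is highest, while both other shares are highest there. Each genotype is spread along the axis, Q33 cords least.

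The members took different places on this pattern. Within genotypes, the log2 level of the 22 tRNAs correlated with the log2 share of the other small RNAs at r = 0.677 (mt-Tr) to 0.985 (mt-Tg), with a median of 0.919. These values describe 18 libraries, in each of which the genes share 1 depth and preparation, and carry no p. mt-Rnr1 had r = 0.965, but mt-Rnr2 had -0.574. Of the protein genes, mt-Nd3 had the highest r, 0.941, and mt-Co1 the lowest, -0.777, and mt-Nd6 (-0.115) and mt-Co2 (-0.399) were also below 0. The median over the 13 protein genes was 0.813.

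The spread between libraries also differed widely among the members. As a share of library counts, the highest library exceeded the lowest 1.43-fold for mt-Nd6, 1.81-fold for mt-Co1, 2.39-fold for mt-Rnr2 and 4.78-fold for mt-Rnr1. For mt-Tv, printed above, the ratio was 36.97, for mt-Ts1 32.4, for mt-Tg 27.7, for mt-Tt 24.7 and for mt-Tp 14.5. It was largest for mt-Tk, the lysine tRNA, at 77.9, where the lowest count was 1. With TMM scaling, the tRNA mt-Tg had 40.7, 228 and 26.7 CPM in the Q33 double knock-ins, against 69.0, 19.1 and 135 CPM in the Q22 double knock-ins. It had 16.2, 162 and 89.1 CPM in TDP-43 cords, 142, 60.2 and 101 CPM in Q33 cords, 463, 18.3 and 104 CPM in Q22 cords, and 162, 16.1 and 15.3 CPM in NTg cords. Its libraries differed widely within most genotypes, and least in Q33 cords. Both strands spread widely: the 14 plus-strand tRNAs together took 0.00315% to 0.0574% of counts, and the 8 minus-strand tRNAs 0.00174% to 0.0234%.

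**Figure D5:**
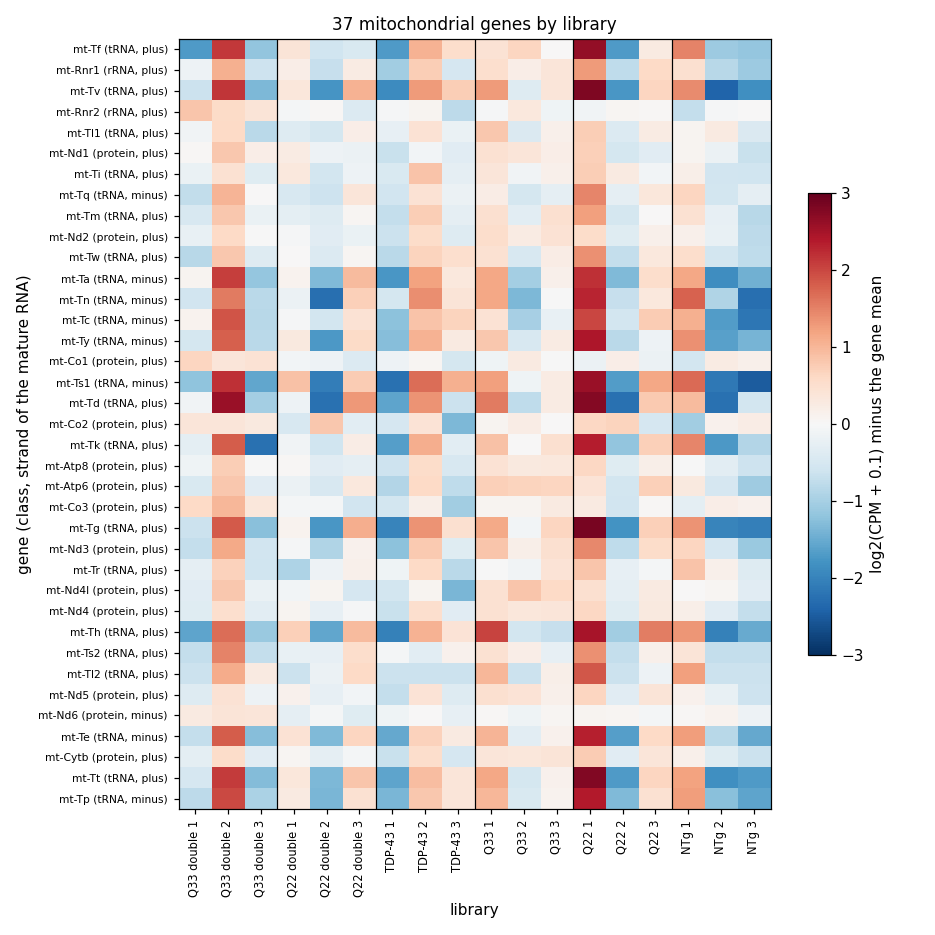
Level of the 37 genes in the 18 libraries as log2(CPM + 0.1) minus the gene's mean, in order along the chromosome, with the strand of the RNA beside each name. The tRNA rows change together by library, with Q22 replicate 1 and Q33 double knock-in replicate 2 high, while mt-Nd6 stays nearly flat.

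The Q33 double knock-ins and NTg cords had libraries at both ends of this pattern. The mt-Rnr2 levels are listed here by tRNA share, with 1 or 2 libraries of a genotype at each end. They were grouped after the shares were seen, and the part of this pattern in the mt-Rnr2 difference was not tested. At low shares, Q33 double knock-in replicates 1 and 3 had 320590 and 238180 CPM, against 177990 and 183660 CPM in NTg replicates 2 and 3. At high shares, Q33 double knock-in replicate 2 had 270310 CPM, against 110310 CPM in NTg replicate 1. With the log2 share of the other small RNAs as a covariate, a fit added after the data were seen, edgeR called 9 of 35 members higher (25.7%) in the Q33 double knock-ins against NTg, where 8.87% of all genes tested rose. It called 4 higher (11.4%) against the Q22 double knock-ins, where 10% of all genes rose, and 5 (14.3%) against TDP-43, where 9.01% rose. In that fit mt-Rnr2 had a log2 fold change of 0.86 against NTg (adjusted p = 0.00599) and mt-Nd6 of 0.34 (adjusted p = 0.0191). The covariate had already been seen to follow most members within genotypes (median r of 0.919 for the tRNAs and 0.813 for the protein genes). Taking it out narrows their spread, so more calls among members than among all genes cannot count as support. Members that move together by library are also not separate results. Planned correlations of the rRNA share within genotypes did not pass: r was 0.376 with the protein share (exact permutation p = 0.359), -0.288 with the tRNA share (0.184), 0.127 with log2 depth (0.811) and -0.107 with the share of cytosolic rRNA-like loci (0.840). Spearman's rho for these 4 was 0.131, -0.276, 0.174 and -0.137, and without the 2 libraries farthest from the median rRNA share (Q33 double knock-in replicate 1 and TDP-43 replicate 3) r was 0.343, -0.289, 0.0713 and -0.125. Their p adjusted over the 4 ran from 0.717 to 0.840.

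Nuclear genes that serve the mitochondrial chromosome changed unevenly in the Q33 double knock-ins against NTg. Of all genes tested, 5.68% rose and 6.39% fell there, so 1 called gene in a list of 11 or 12 says little about the list. Against the Q22 double knock-ins 6.67% of all genes rose, and against TDP-43 5.98%. Of 11 genes of mitochondrial transcription 1 rose, Tfam, which packs the chromosome and starts its transcription (log2 fold change 0.28, adjusted p = 0.0391), and the list's median was 0.23. Of 23 genes of mitochondrial RNA processing and stability 4 rose and 0 fell, with a median of 0.20, and 8 rose against the Q22 double knock-ins and 7 against TDP-43. Among the 4 were Trmt10c, a subunit of the mitochondrial RNase P that cuts the 5′ ends of tRNAs (0.68, adjusted p = 0.00475), Ptcd2 (0.47, adjusted p = 0.0130) and Lrpprc, which stabilises mitochondrial mRNAs (0.24, adjusted p = 0.0259). Of 12 genes of mitochondrial DNA replication 1 rose, the nuclease gene Exog (0.39, adjusted p = 0.0456), with a median of -0.14. None of 17 genes of rRNA modification and ribosome assembly (median 0.12) and none of 20 mitochondrial aminoacyl tRNA synthetase genes (median 0.04) passed the test. Of 8 regulators of mitochondrial biogenesis, Esrra rose (0.60, adjusted p = 0.0152) and Gabpa fell (-0.27, adjusted p = 0.0451). Scaled by library totals, fewer of these genes rose: 0 of transcription (median -0.02), 0 of replication, where 4 fell, 0 of biogenesis, where 2 fell, and 1 of RNA processing and stability, where 1 fell (median -0.04). On that scale 0 of the RNA processing genes rose against the Q22 double knock-ins or TDP-43, and 1 gene fell in each of the ribosome assembly and synthetase lists against NTg. The share of all genes called with library totals is not given, here or for the lists below.

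Of 20 nuclear subunits of complexes I, III, IV and V 17 rose and 0 fell against NTg, where 5.68% of all genes rose. Their median was 0.55. Examples were Ndufv2 of complex I (0.78, adjusted p = 0.00675), Uqcrc1 of complex III (0.57, adjusted p = 0.00527) and Atp5e of the ATP synthase (0.73, adjusted p = 0.0055). Of 14 genes taken as measures of mitochondrial mass 9 rose and 0 fell, with a median of 0.42, among them the outer membrane channels Vdac1 (0.49, adjusted p = 0.0118) and Vdac3 (0.48, adjusted p = 0.0111) and the ADP/ATP carrier Slc25a5 (0.67, adjusted p = 0.0150). Against the Q22 double knock-ins 13 of the 20 subunits and 11 of the 14 mass genes rose, where 6.67% of all genes rose. Against TDP-43 these were 12 and 9, where 5.98% of all genes rose. Scaled by library totals, 5 of the 20 and 1 of the 14 rose against NTg. The medians stood at 0.30 and 0.17, and that of all genes had moved by -0.25. Like the other gene lists, these were chosen with earlier results of these data known, so their excess over all genes cannot count as support.

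Markers of cell types and cord level also moved in the Q33 double knock-ins against NTg, where 5.68% of all genes rose and 6.39% fell. Of 8 neuron markers 3 rose and 1 fell, with summed levels of 8894 to 10636 CPM in the Q33 double knock-ins and 6009 to 6924 CPM in NTg cords. Snap25, a synaptic fusion protein, rose by 0.62 (adjusted p = 0.00429) and Eno2, a neuronal enolase, by 0.50 (adjusted p = 0.00529), while the vesicle calcium sensor Syt1 fell (-0.88, adjusted p = 0.00232). Of 6 astrocyte markers 3 fell (Slc1a3, Gfap and Aqp4), with summed levels of 5548 to 7176 CPM in the Q33 double knock-ins and 7147 to 7522 CPM in NTg cords. Of 5 microglia markers Csf1r and Cx3cr1 fell (178 to 204 CPM in the Q33 double knock-ins, 233 to 292 CPM in NTg cords, summed). Of 5 endothelial markers Cldn5 rose (0.75, adjusted p = 0.0361).

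The 6 caudal Hox genes, whose level marks the lower cord, summed to 53.2 to 103 CPM in the Q33 double knock-ins against 2.29 to 17.9 CPM in NTg cords, and Hoxd10 rose (5.98, adjusted p = 0.0401). In the Q22 double knock-ins they summed to 3.92 to 93.0 CPM and in Q33 cords to 1.33 to 72.5 CPM. Of 5 nuclear long noncoding RNAs Neat1 and Malat1 fell (-0.58 and -0.29, adjusted p = 0.00549 and 0.0393). No marker of 5 skeletal muscle, 5 erythroid or 2 brown fat genes tested passed, and the 7 muscle markers summed to at most 2.01 CPM in the Q33 double knock-ins and 2.14 CPM in NTg cords. No marker of these cell type lists was at 0 in all 18 libraries. Scaled by library totals, 1 neuron marker rose and 1 fell, 3 astrocyte and 4 microglia markers fell, 2 caudal Hox genes and 0 endothelial markers rose, and 4 of the nuclear long noncoding RNAs and 1 brown fat marker fell. The part of neuron share and cord level in the mitochondrial levels was not tested.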

How the data were processed

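Whole-number read counts per gene were deposited in 1 table for all 18 libraries. Per the file headers they were made with featureCounts 1.6.1 from TopHat alignments on exons of GENCODE M19, counting pairs on their own strand, for 1 gene and 1 place only. Trim Galore 0.4.1, TopHat2, featureCounts, DESeq2 and mm10 are named in the submitters' processing notes. Per the labels' protocols, the RNA (QIAzol, miRNeasy columns, DNase, integrity number above 7.5) was depleted of rRNA, prepared with the stranded SMARTer total RNA kit and sequenced as 100-base pairs on 3 lanes. Which rRNAs the depletion covers, sex, litter and batch are not given in the sources used here.

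From these counts, class shares, CPM (TMM factors 0.861 to 1.109) and the quasi-likelihood test of edgeR (version 4.0.16, with limma version 3.58.1 in R 4.3.3) were computed in 1 fit of 18 libraries over 20635 genes. The 16 comparisons were each adjusted by Benjamini-Hochberg. The fit was tested on simulated data. Alternatives were scaling by library totals or by totals outside the chromosome, no low-count filter, DESeq2 1.42.0, fits of 2 groups alone and leaving out each library. Symbols matched 54409 of 54446 identifiers. Only annotated transcripts were searched for nuclear copies. Members and lists were chosen with earlier results of these data known. Members past the threshold, the markers mt-Rnr1, mt-Rnr2 and mt-Nd6, the highest and lowest of each class, and up to 3 called genes per list were named. The result of 1 cell type marker list is not reported here. Others named for their range, correlation or sequence were chosen after their values were seen.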

Additional observations from a re-analysis of the deposited data

How the results depend on the processing

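No paired analysis was possible because the replicate numbers follow the accession order and the labels tie no libraries across genotypes. Without the filter on low counts, edgeR called 17 members in the Q33 double knock-ins against NTg (8.12% of all genes), 13 against the Q22 double knock-ins (7.94%) and 9 against TDP-43 (8.23%), all higher, and 7 against Q33 (2.92%), 4 higher and 3 lower. It then called, all higher, 10 in Q33 (1.04%), 16 in Q22 (0.607%) and 2 in TDP-43 cords (0.214%) against NTg. It called, all lower, 1 in the Q22 double knock-ins against TDP-43 (0.125%), 10 in them against Q22 (0.372%), and 6 in Q33 against Q22 (0.178%). For averaged genotypes it called 14 higher (ATXN2 carriers, 2.53% of all genes), 8 higher and 1 lower, 9 in all (Q33 against Q22 carriers, 4.18%), and 3 lower (TDP-43 carriers, 0.431%). For the interactions it called 4 (Q33, 1.36%), 2 in each direction, and 9 lower (Q22, 0.492%), and the cause was not tested. With library totals the counts for the Q33 double knock-ins were 1 against NTg, 1 against the Q22 double knock-ins and 2 against TDP-43, and 0 for Q33 against Q22 carriers. With totals of genes outside the chromosome they were 1 against NTg and 0 for Q33 against Q22 carriers. Fits of only the 2 groups gave 1 against NTg and 0 against TDP-43, with fewer samples behind the spread. DESeq2 called 1 in the Q33 double knock-ins against Q33 and 2 in Q33 against Q22 carriers. With the small RNA share as a covariate, added later, there were 9 against NTg (8.87% of all genes higher) and 3 for Q33 against Q22 carriers. For the other counts from library totals on, and for those with 1 library left out, the share of all genes is not given. These counts do not show whether members lost calls more often than other genes.

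Leaving out 1 library at a time, members called ranged from 0 to 2 for the Q33 double knock-ins against NTg, 1 to 4 against the Q22 double knock-ins, 1 to 6 against TDP-43, 0 to 1 for ATXN2 carriers (1 without TDP-43 replicate 2) and 0 to 1 for Q33 against Q22 carriers. Differences that had not passed changed sign in some of these fits. The tRNA share ranged from -0.0106 to 0.00192 percentage points for TDP-43 carriers and from -0.0144 to 0.00433 for Q33 against Q22 carriers, positive only without Q22 replicate 1 in either. The log2 mt-Rnr2 to mt-Rnr1 ratio of ATXN2 carriers ranged from -0.548 to 0.0573, and the log2 mt-Nd6 ratio of Q33 against Q22 carriers from -0.0807 to 0.0234. That ratio was 0.0926 when taken to the median over protein genes of log2 CPM per kb. The correlation of the rRNA share ranged from -0.224 to 0.404 with log2 depth and from -0.303 to 0.0800 with the cytosolic rRNA-like share. Pooled over the 18 libraries, its r with the protein share was 0.590 (permutation p = 0.00919), which the differences between genotypes enter. Depth limits the tRNAs with few counts (mt-Tl2 had at most 10) and mt-Co2 (at most 61).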
